A study of Mus musculus with 6 samples.

Results

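Chromatin regulators that are studied in blood stem cells and leukaemia were examined here as a set of 51 named genes. They cover the Polycomb complexes, the trithorax and other methyltransferases, histone demethylases, the male-specific lethal complex, DNA methylation, acetylation and nucleosome remodelling. They were chosen by name, and 50 of the 51 had a probeset paired with 1 gene symbol in the array annotation, out of 19938 genes so measured. Ash1l is not analysed here. Each gene is represented by its brightest probeset over all 6 arrays. The cells came from the bone marrow of wild-type, young adult FVB/nJ mice and were Lin-Kit+Sca-1+, the fraction that holds haematopoietic stem cells and multipotent progenitors. In 3 samples they carried the control lentivirus pCAD-IRES-GFP, and in the other 3 a lentivirus with mouse HLX, a homeobox transcription factor. Both groups were kept for 2 days with serum, mIL-3, mIL-6, mSCF and virus in 8 µg/ml polybrene. Both were then sorted for GFP, so the controls share these steps with the HLX group. The order of HLX, IRES and GFP in the HLX vector differs between the labels' own fields. How many mice stand behind a sample the labels leave unsaid, and a p-value therefore reflects how these samples vary, part of which may be technical.

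Polycomb repressive complex 2 places methyl groups on lysine 27 of histone H3, and Polycomb repressive complex 1 compacts such chromatin and marks histone H2A with ubiquitin. Trithorax-type enzymes methylate lysine 4 of histone H3 and keep genes active, and demethylases, deubiquitinases and deacetylases remove the marks. DNA methyltransferases and TET enzymes set and oxidise cytosine methylation. Many of these genes are recurrently mutated in myeloid leukaemia, among them Ezh2, Asxl1, Dnmt3a, Tet2, Idh1, Idh2 and Phf6, and several are needed for self-renewal, as Bmi1 is.

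The vector was checked first. Hlx had log2 levels of 6.99, 7.29 and 7.62 in control replicates 1 to 3 and of 10.75, 9.74 and 10.28 in HLX replicates 1 to 3. The groups were far apart, a 7.75-fold difference, and the adjusted p from limma was 0.0782. At an adjusted p under 0.05 stood 0 of the 19938 genes (0%), and at an unadjusted p under 0.05 stood 958 (4.80%), both from limma. A trended and robust variance prior called 1 gene, Hlx. Interferon response genes set both arrays numbered 1 apart, with a mean log2 level over 13 genes of 7.81 in control replicate 1 and 7.67 in HLX replicate 1 against 6.58 to 6.78 in the other 4 arrays.

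Of the 50 chromatin regulators, none passed the adjusted threshold, and the smallest adjusted p from limma was 0.932, for Msl2. At an unadjusted p under 0.05 stood 3 of 50, beside 4.80% of all genes. Msl2 and Bap1 were on the higher side, where 2.44% of all genes stood, and Kdm6a on the lower, where 2.36% did, so the count is near the background. With the arrays centred on their medians 3 were higher and 0 lower. The 3 HLX arrays all lay above the 3 control arrays in 4 members, beside 4.34% of all genes, and all below in 1, beside 4.85%. Together these are 5 of 50, beside 9.19% of all genes. The log2 difference exceeded 0.25 in size in 8 members, beside 13.0% of all genes. It was above 0 in 30 of 50, beside 47.5% of all genes, with a median of 0.059 against -0.0078 over all genes. The SD of the members' median between replicate arrays was 0.058. That is a spread of single arrays, whereas the median of 0.059 compares means of 3 arrays, so the 2 are not like measures. Without control replicate 2 the median was -0.0046. Cell cycle genes lay to the same side, 22 of 25 above 0 with a median of 0.066, and their part in the members' median was not tested.

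**Figure D1:**
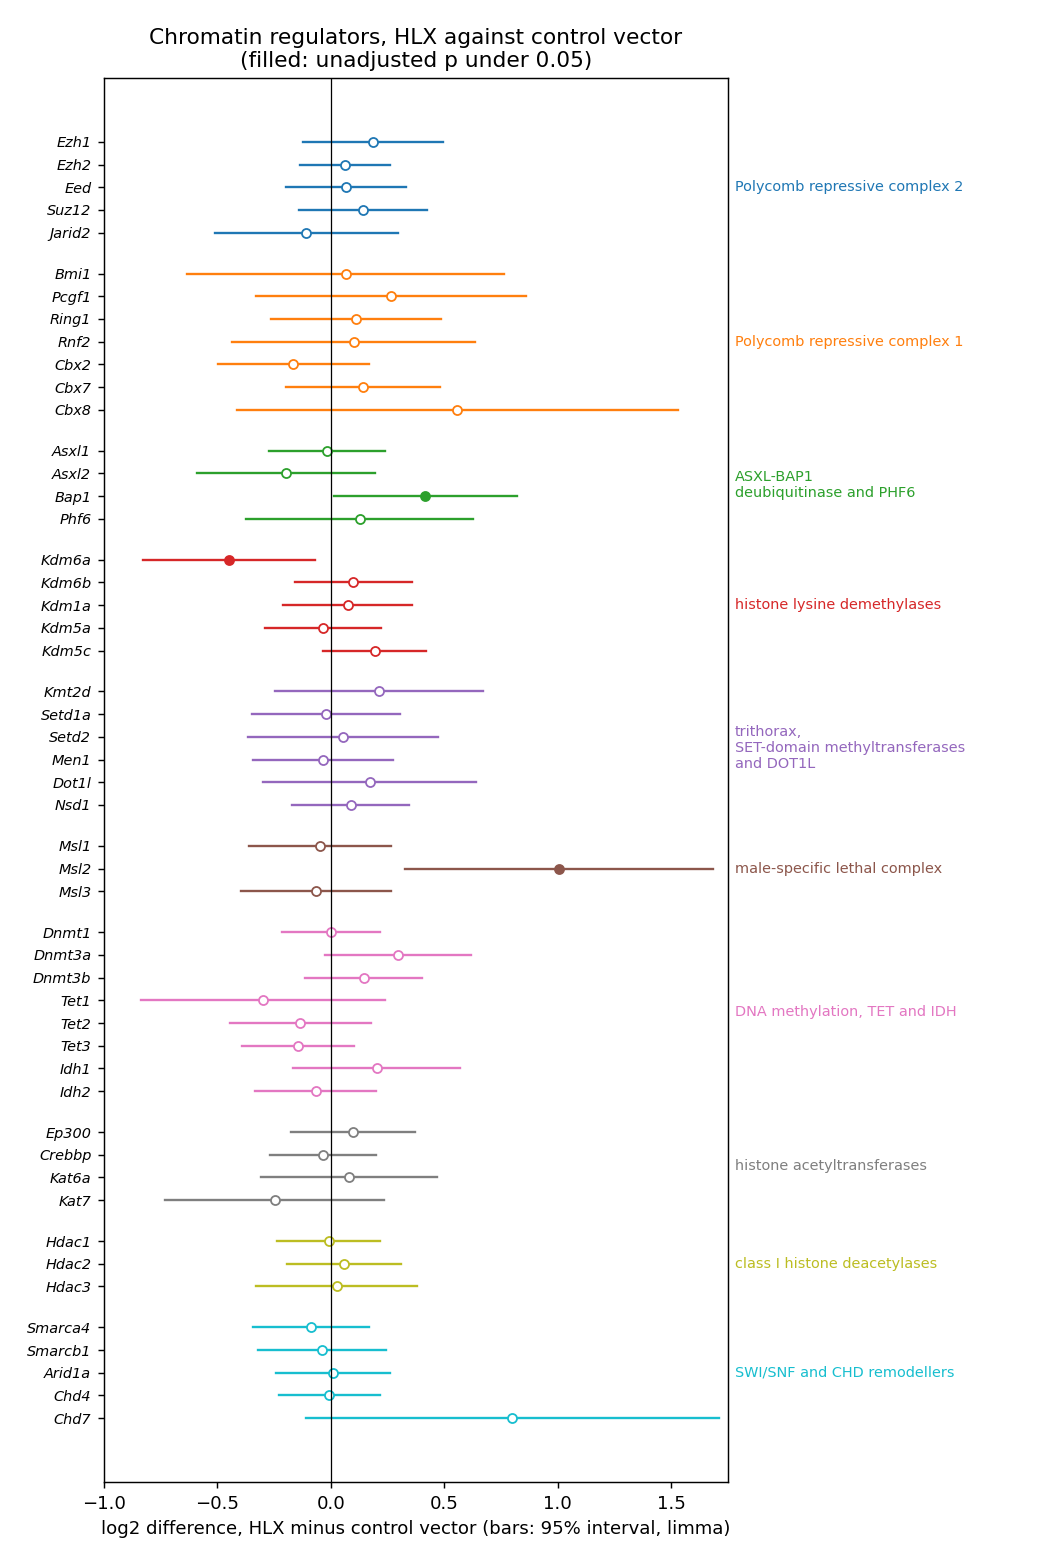
Log2 difference between HLX and control vector for 50 chromatin regulators, grouped by complex, with 95% intervals from limma (n = 3 arrays per group). Msl2, Bap1 and Kdm6a, drawn filled, are the members at an unadjusted p under 0.05, and the intervals of Msl2, Cbx8 and Chd7 are the ones that reach a log2 difference of 1.

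The intervals state how large a difference these arrays leave possible. For 47 of 50 members the 95% interval from limma lay wholly within a 2-fold difference in either direction, beside 96.0% of all genes. For 35, or 70%, it lay within 1.5-fold, beside 79.6% of all genes. The 3 members whose interval reached 2-fold were Msl2, Cbx8 and Chd7. The 3 narrowest were those of Ezh2, Dnmt1 and Chd4. Ezh2 was at log2 levels of 10.75, 10.73 and 10.72 with the control vector and 10.83, 10.77 and 10.78 with HLX. The groups did not overlap, yet the difference was 0.062 (95% interval -0.14 to 0.26), far below 1.5-fold. Dnmt1, the maintenance DNA methyltransferase, had a difference of 0.00035 (-0.21 to 0.21), and Chd4, the remodelling ATPase of the NuRD complex, one of -0.0071 (-0.23 to 0.22).

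The sequence upstream of the start is shown for the 3 members at an unadjusted p under 0.05, since they have the smallest p in the set. Each run is the 250 bases before the most upstream start in RefSeq on GRCm38.p6, plus strand, 5′ to 3′: Msl2 at chr9:101073804-101074053, Bap1 at chr14:31251239-31251488 and Kdm6a at chrX:18162325-18162574. Capitals mark the letters TAAT or their reverse complement ATTA, the core that homeodomains are known to read.
Msl2: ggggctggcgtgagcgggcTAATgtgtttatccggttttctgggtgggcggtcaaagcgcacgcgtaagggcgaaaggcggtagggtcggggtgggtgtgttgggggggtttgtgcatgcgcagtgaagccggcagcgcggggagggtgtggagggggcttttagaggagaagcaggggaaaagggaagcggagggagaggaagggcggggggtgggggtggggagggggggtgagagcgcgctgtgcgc
Bap1: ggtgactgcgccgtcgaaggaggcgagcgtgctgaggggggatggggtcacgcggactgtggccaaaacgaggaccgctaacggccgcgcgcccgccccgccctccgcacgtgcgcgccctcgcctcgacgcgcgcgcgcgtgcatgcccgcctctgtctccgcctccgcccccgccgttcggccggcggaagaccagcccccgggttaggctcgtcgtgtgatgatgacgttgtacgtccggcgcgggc
Kdm6a: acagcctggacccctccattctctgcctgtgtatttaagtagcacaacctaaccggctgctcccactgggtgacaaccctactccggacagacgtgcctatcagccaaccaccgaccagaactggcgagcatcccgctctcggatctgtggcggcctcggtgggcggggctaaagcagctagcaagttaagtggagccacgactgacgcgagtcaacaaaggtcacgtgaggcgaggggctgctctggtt
The window of Msl2 shown held 1 such match, and those of Bap1 and Kdm6a 0. RefSeq lists 2 starts of Msl2, and the window of the other start, not shown, held 0 matches and 31 CpG. RefSeq windows were matched for 40 of the 50 members, with 53 starts in all. TAAT on either strand was in 32.1% of the members' windows, in 47.3% of those of all measured genes and in 54.9% of all windows of this length. The members' windows were also richer in CpG. Their median G and C content was 67.2% against 56.8% for all measured genes, and 79.2% of them had over 0.6 times the CpG that their base composition predicts, against 48.0%. The Bap1 window had 43 CpG, the Msl2 window shown 19 and the Kdm6a window 15. A match of letters is a description and shows no binding.

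In the male-specific lethal complex, which acetylates lysine 16 of histone H4, Msl2 had the largest difference of the 50 members. Msl2, the RING-finger subunit, was at log2 levels of 8.24, 8.27 and 8.55 in the control arrays and 9.35, 8.74 and 9.99 in the HLX arrays. All HLX values were above all control values, with a wide spread among them. The difference was 1.01 ± 0.29 (SE, n = 3 per group), a 2.01-fold higher level, with an unadjusted p from limma of 0.00957 and an adjusted p of 0.932. It was 0.69 without HLX replicate 3 and 1.32 without HLX replicate 2, and the unadjusted p was 0.0521 without both arrays numbered 1. The scaffold gene Msl1 had a difference of -0.048 (95% interval -0.36 to 0.26), and the chromodomain gene Msl3 one of -0.065 (-0.39 to 0.26). Within each array the log2 ratio of Msl2 to Msl1 was 1.06 higher with HLX, and that of Msl2 to Msl3 1.07 higher, without overlap in either.

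**Figure D2:**
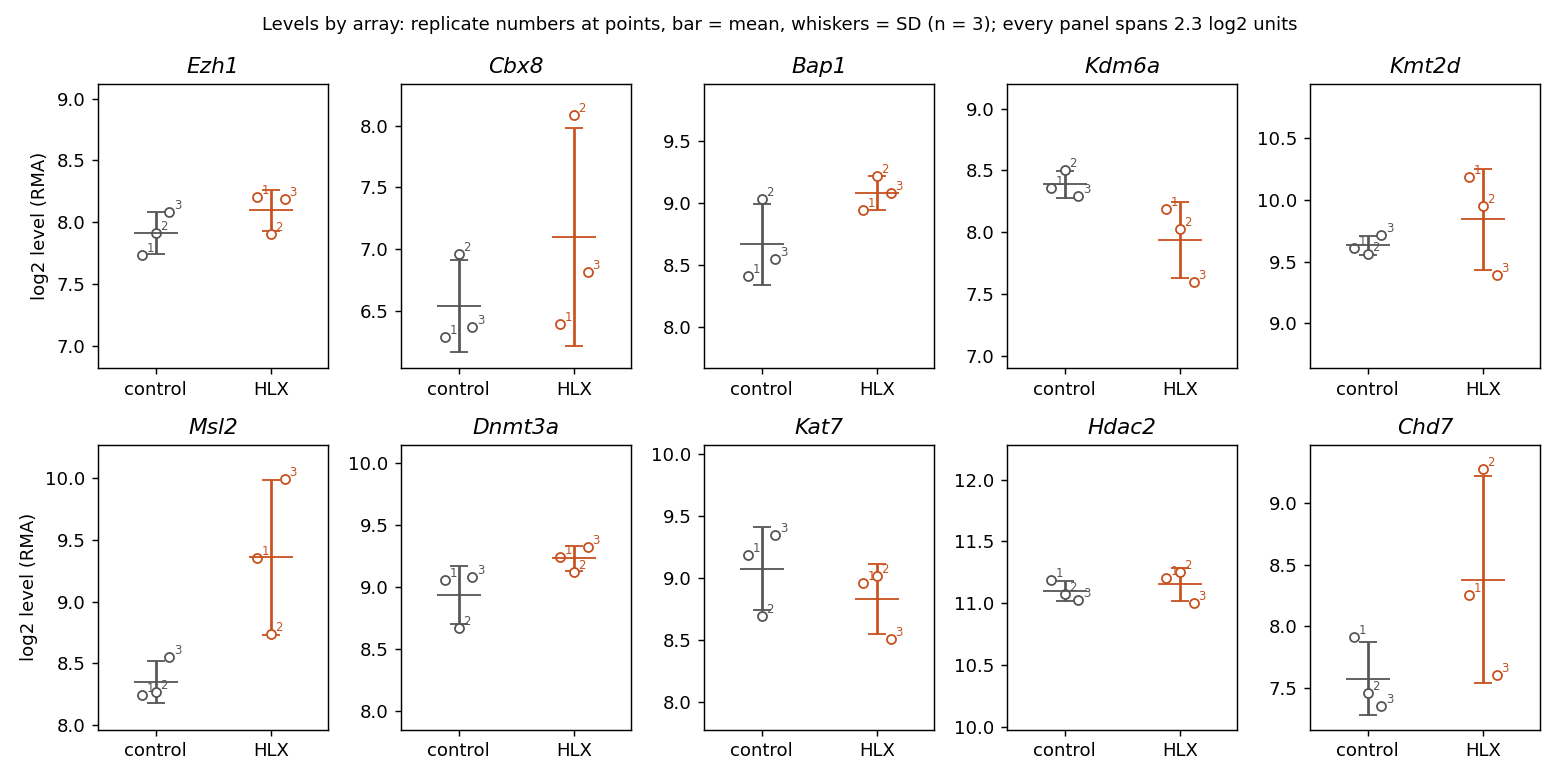
Log2 levels in each array (points, with the replicate number) for 10 members, namely those at an unadjusted p under 0.05 and the member with the smallest p in each complex. Bars give the mean and whiskers the SD of 3 arrays. Msl2 and Kdm6a separate the groups, as does Dnmt3a, while Cbx8 and Chd7 each have a single high value in HLX replicate 2.

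Among histone demethylases the lowest value was that of Kdm6a, the X-linked enzyme that removes methyl groups from lysine 27 of histone H3. Kdm6a was at log2 levels of 8.36, 8.50 and 8.29 in the control arrays and 8.19, 8.03 and 7.60 in the HLX arrays. The HLX values all lay below the controls, with replicate 3 lowest. The difference was -0.45 ± 0.16 (SE, n = 3 per group), a 1.36-fold lower level, with an adjusted p from limma of 0.975 and an unadjusted p of 0.0259. The unadjusted p was 0.0798 without control replicate 2, 0.0516 without control replicate 1 and 0.0542 with the arrays centred on their medians. The difference was -0.28 without HLX replicate 3.

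Its paralogue Kdm6b, which acts on the same mark, had a difference of 0.099 (95% interval -0.16 to 0.36). The log2 ratio of Kdm6a to Kdm6b was 1.29, 1.45 and 1.47 in the control arrays and 1.02, 1.06 and 0.48 in the HLX arrays, and these groups did not overlap. The shift of -0.55 had an exact permutation p of 0.1, the smallest that 3 against 3 arrays allow. Kdm5c, an X-linked demethylase of lysine 4 of histone H3, was at 8.03, 8.11 and 8.18 against 8.30, 8.21 and 8.39. Here the HLX values lay above the controls, with a difference of 0.19 (95% interval -0.036 to 0.42). Kdm1a, the lysine 4 demethylase also called LSD1, and Kdm5a had differences of 0.074 and -0.036.

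Kdm6a and Kdm5c both escape X inactivation, so the sex of the cells was checked, a check chosen after their values were seen. Xist was at log2 levels of 10.76 to 10.95 in all 6 arrays. The Y-linked genes Uty, Kdm5d and Eif2s3y were between 3.07 and 4.94. No array stood apart from the others. The other X-linked members, Phf6 and Msl3, had differences of 0.13 and -0.065.

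The deubiquitinase that BAP1 forms with ASXL proteins removes ubiquitin from histone H2A. Bap1, its catalytic subunit, was at log2 levels of 8.41, 9.03 and 8.55 in the control arrays and 8.95, 9.22 and 9.08 in the HLX arrays. The groups overlapped, with control replicate 2 above HLX replicate 1. The difference was 0.42 ± 0.17 (SE, n = 3 per group), with an unadjusted p from limma of 0.0451. The difference was 0.29 without control replicate 1 and 0.60 without control replicate 2, and the unadjusted p was under 0.05 in 5 of 15 alternative fits. The cofactor genes Asxl1 and Asxl2 had differences of -0.016 and -0.20, and Phf6, a chromatin adaptor lost in T cell and myeloid leukaemia, one of 0.13. None of these 3 separated the groups.

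In Polycomb repressive complex 2 differences were 0.19 for Ezh1, 0.062 for Ezh2, 0.067 for Eed, which binds the methylated histone tail, and 0.14 for the scaffold Suz12. The accessory gene Jarid2 was at -0.11 (95% interval -0.51 to 0.30). Ezh1, which takes the place of the catalytic subunit Ezh2 in slowly dividing cells, was at 7.74, 7.91 and 8.08 in the control arrays and 8.20, 7.91 and 8.19 in the HLX arrays. These ranges overlapped, and the unadjusted p from limma was 0.196. The log2 ratio of Ezh2 to Ezh1 shifted by -0.12 (exact permutation p = 0.5). Of 7 further listed genes of this complex, all 7 had differences below 0, with a median of -0.077, beside 10467 of 19938 over all genes. Of the 7, 1 was at an unadjusted p under 0.05 in limma, namely Mtf2, beside 4.80% of all genes. The 7 include the core histone-binding genes Rbbp4 and Rbbp7, at -0.028 and -0.034. Their 95% intervals of -0.33 to 0.27 and -0.25 to 0.18 span 0, so the sign of either is not settled. Mtf2, an accessory subunit that brings the complex to CpG-rich DNA, was at 10.55, 10.45 and 10.42 against 10.33, 10.24 and 10.17. This gives -0.23 ± 0.095 (SE, n = 3 per group) and an unadjusted p from limma of 0.0437.

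The members of Polycomb repressive complex 1 had a median SD between replicates of 0.22 with the control vector and 0.31 with HLX, against 0.13 and 0.15 over all genes. That was the highest HLX value of the member lists, but not by much. The trithorax, SET-domain and DOT1L list had 0.10 with the control vector and 0.30 with HLX. Bmi1, which sustains self-renewal of stem cells, was at log2 levels of 8.38, 7.94 and 8.16 in the control arrays and 8.40, 8.75 and 7.52 in the HLX arrays. The HLX arrays thus held both its highest and its lowest value, and the difference of 0.066 had an interval of -0.63 to 0.76. Pcgf1, the subunit of a variant complex that recognises CpG islands, was at 6.87, 6.84 and 7.05 against 6.58, 7.33 and 7.65, again wider with HLX. The ubiquitin ligase genes Ring1 and Rnf2 had differences of 0.11 and 0.10 (95% intervals -0.26 to 0.49 and -0.44 to 0.64).

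The CBX proteins are the chromodomain subunits that read methylated lysine 27, and they exclude one another from a complex. Cbx8 was at 6.29, 6.96 and 6.37 in the control arrays and 6.39, 8.09 and 6.82 in the HLX arrays. Its difference of 0.56 ± 0.42 (SE, n = 3 per group) rested on HLX replicate 2 and was 0.065 without it. Cbx7, linked to stem cell self-renewal, had a difference of 0.14 and Cbx2 one of -0.17, both with overlapping groups. Set against each other within arrays they separated. The log2 ratio of Cbx7 to Cbx2 was -1.39, -1.34 and -1.47 in the control arrays and -1.17, -1.09 and -1.02 in the HLX arrays. The SD was 0.066 and 0.074 and the shift 0.31, with an exact permutation p of 0.1, or 0.350 after Benjamini-Hochberg adjustment over the 14 pairs compared. With 1 array left out the shift ran from 0.27 without HLX replicate 3 to 0.34 without HLX replicate 1. Scmh1, a further protein of this complex, was at 7.66, 8.10 and 7.74 against 7.50, 7.42 and 7.20, a difference of -0.46 ± 0.15 with an adjusted p from limma of 0.932.

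**Figure D3:**
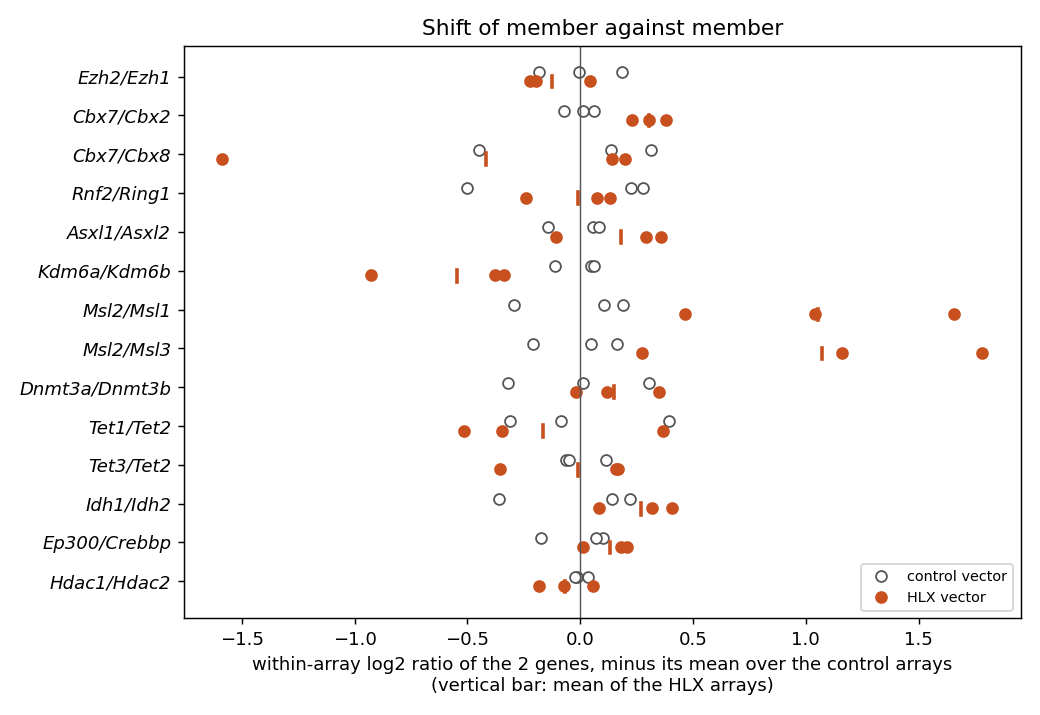
Within-array log2 ratio of a member to a second member of its complex or function, for 14 pairs, shown relative to the mean of the control arrays. Each point is an array (n = 3 per group) and the bar is the mean of the HLX arrays. HLX and control points do not overlap for Cbx7/Cbx2, Kdm6a/Kdm6b, Msl2/Msl1 and Msl2/Msl3.

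Of the 14 pairs compared, 4 separated the groups. The share over other pairs of genes was not computed, so this count has no background to be read against. The pairs with Msl2 or Kdm6a hold a member that separated the groups by itself, and both Msl2 pairs share it, so these are not independent of its own values. None of the 14 could pass the threshold, since 0.1 is the smallest exact p of this design. The level of such a ratio has no meaning across probesets, and only its shift between vectors is given. The pairs without separation included Dnmt3a to Dnmt3b with a shift of 0.15, Ep300 to Crebbp with 0.13 and Hdac1 to Hdac2 with -0.066. Idh1 to Idh2 had a shift of 0.27 and an exact permutation p of 0.3.

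None of the 6 measured members of the trithorax, SET-domain and DOT1L list separated the groups. Kmt2d, which marks enhancers at lysine 4 of histone H3, was at log2 levels of 9.61, 9.56 and 9.72 in the control arrays and 10.19, 9.95 and 9.39 in the HLX arrays. The lowest value of all was thus HLX replicate 3, and the difference was 0.21 (95% interval -0.25 to 0.67). Dot1l, the lysine 79 methyltransferase on which MLL-rearranged leukaemia depends, was at 7.73, 7.72 and 7.59 against 7.73, 7.50 and 8.32. HLX replicate 3 was its highest value and HLX replicate 2 its lowest. The difference of 0.17 had an interval of -0.30 to 0.64. Men1, which encodes the MLL cofactor menin, had a difference of -0.036. The lysine 4 methyltransferase gene Setd1a was at -0.022, and Setd2 and Nsd1, whose enzymes methylate lysine 36, were at 0.054 and 0.087.

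Of 27 further genes of that group, 1 was higher and 1 lower at an unadjusted p under 0.05 in limma, beside 2.44% and 2.36% of all genes, so these counts are near the background. Mllt3, a partner of DOT1L and a maintenance factor of stem cells, was at 9.56, 9.33 and 9.44 against 8.80, 9.03 and 8.51. All its HLX values lay below all its control values, a difference of -0.67 ± 0.15 (SE, n = 3 per group). Paxip1, a subunit of the KMT2C and KMT2D complexes, was at 8.04, 7.76 and 7.93 against 8.50, 8.15 and 8.37, a difference of 0.43 ± 0.13 (SE, n = 3 per group). Their adjusted p from limma was 0.859 and 0.932.

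In DNA methylation the de novo enzyme gene Dnmt3a, often mutated in clonal haematopoiesis, had the smallest p. It was at log2 levels of 9.06, 8.67 and 9.09 in the control arrays and 9.25, 9.12 and 9.33 in the HLX arrays. HLX replicate 2 lay just above the highest control. The difference was 0.29 ± 0.14 (SE, n = 3 per group), with an unadjusted p from limma of 0.0676. It was 0.16 without control replicate 2. Dnmt3b, the other de novo enzyme, had a difference of 0.14.

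The 3 TET genes, whose enzymes oxidise methylcytosine, all had differences below 0, at -0.30 for Tet1, -0.13 for Tet2 and -0.14 for Tet3, and all had overlapping groups. Tet1 was at 8.46, 8.06 and 8.10 in the control arrays and 8.34, 7.94 and 7.45 in the HLX arrays, with its lowest value in HLX replicate 3. Its 95% interval was -0.84 to 0.24. Idh1 and Idh2 encode the cytosolic and the mitochondrial isocitrate dehydrogenase, whose leukaemia mutants inhibit TET enzymes. Their differences were 0.20 and -0.067.

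None of the 4 acetyltransferase genes separated the groups. Ep300 and Crebbp, the paralogous coactivators, had differences of 0.098 and -0.036 (95% intervals -0.18 to 0.37 and -0.27 to 0.20), and Kat6a, fused in acute myeloid leukaemia, one of 0.078. Kat7, the histone H3 acetyltransferase also called HBO1, was at log2 levels of 9.19, 8.69 and 9.34 in the control arrays and 8.96, 9.02 and 8.50 in the HLX arrays, overlapping throughout. The difference was -0.25 (-0.73 to 0.23). Kat6b, the paralogue of Kat6a, was at 7.50, 7.15 and 7.25 against 6.96, 7.02 and 6.91, which is -0.34 ± 0.11 (SE, n = 3 per group) without overlap. The adjusted p from limma for Kat6b was 0.950.

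The class I deacetylase genes Hdac1, Hdac2 and Hdac3 had differences of -0.0092, 0.057 and 0.025. Hdac2 was at 11.18, 11.08 and 11.03 in the control arrays and 11.20, 11.26 and 11.00 in the HLX arrays, overlapping, with an interval of -0.19 to 0.31. Of 16 further deacetylases and corepressors, Hdac5 was higher at an unadjusted p under 0.05 from limma and Hdac9 lower, 2 of 16 beside 4.80% of all genes. Both are class IIa enzymes. Hdac5 was at 7.30, 7.62 and 7.51 against 7.91, 7.57 and 7.95, with overlap. Hdac9 was at 6.72, 6.58 and 6.88 against 6.37, 6.31 and 6.42, without overlap.

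The 3 members from SWI/SNF, the remodeller that opens chromatin with ATP, had overlapping groups. Smarca4, its ATPase, had a difference of -0.086 (95% interval -0.34 to 0.17), Smarcb1 one of -0.038 (-0.32 to 0.24) and Arid1a one of 0.0094 (-0.24 to 0.26). Of 32 further remodeller genes, 0 were at an unadjusted p under 0.05 in limma, beside 4.80% of all genes. Of these 32, 1 separated the groups, the SWI/SNF subunit gene Bcl7c, at 7.32, 7.47 and 7.46 against 7.51, 7.67 and 7.94, beside 9.19% of all genes. Its difference was 0.29, with an unadjusted p from limma of 0.0590. Chd7, a CHD-family ATPase that acts at enhancers, was at log2 levels of 7.91, 7.46 and 7.36 in the control arrays and 8.26, 9.27 and 7.61 in the HLX arrays. The groups overlapped, with HLX replicate 2 far above the rest. The difference was 0.80 ± 0.39 (SE, n = 3 per group), with an unadjusted p from limma of 0.0765, and it was 0.35 without HLX replicate 2.

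The array carries 30 probesets of Chd7, and they did not all move together. Those numbered from 10503166 to 10503182 all had differences above 0, from 0.17 to 1.87, a run seen after the data. Those with higher numbers lay on both sides of 0. Over the 30 the median difference was 0.072, 18 were above 0, and averaging them all gave 0.18 in place of 0.80. Of the 30, 21 had a mean level under the median of all probesets, 6.36. With each probeset tested on its own, an alternative chosen after seeing the data, 3 of the 30 were at an unadjusted p under 0.05, beside 4.68% of all probesets with 1 symbol, and 0 passed the adjusted threshold. Probeset 10503174 was at 6.28, 6.06 and 6.06 in the control arrays and 6.61, 7.67 and 7.63 in the HLX arrays. Probeset 10503176 was at 3.41, 3.37 and 3.35 against 3.41, 5.43 and 6.91. In the latter, HLX replicate 1 lay at the control level and replicates 2 and 3 well above it, whereas in the brightest probeset, 10503170, replicate 3 was the low one. The remaining probeset at an unadjusted p under 0.05, 10503172, ranked its HLX arrays as the brightest did, with replicate 2 highest and replicate 3 lowest. It separated the groups, with a difference of 0.80 and an unadjusted p from limma of 0.0166. The place of these probesets within the gene is not given by the files used.

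**Figure D4:**
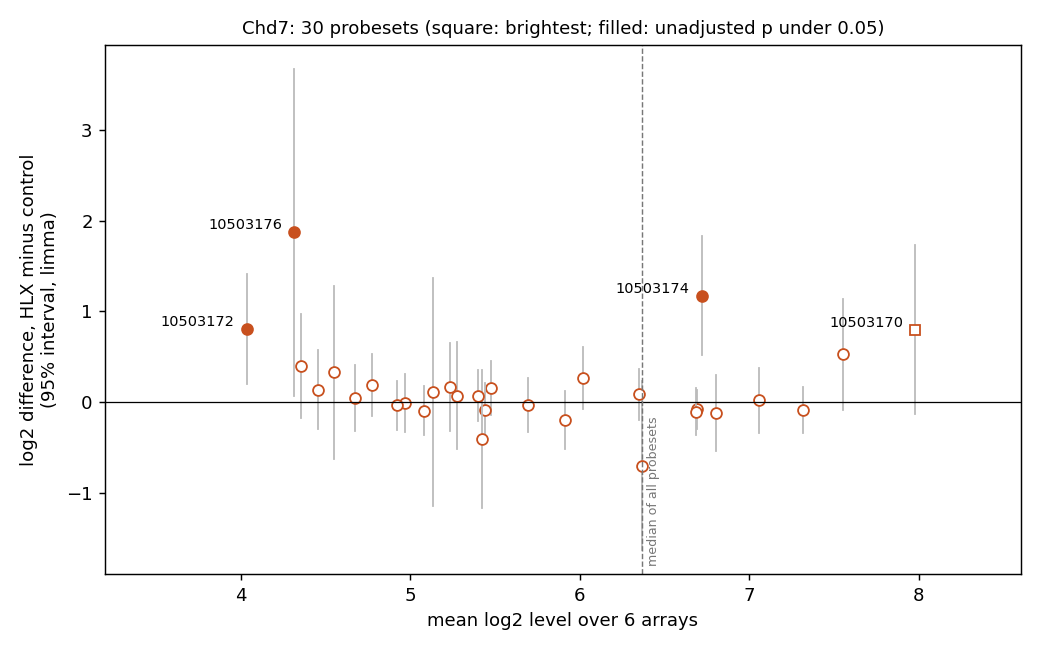
Log2 difference between HLX and control vector against mean log2 level for the 30 probesets of Chd7, with 95% intervals from limma (n = 3 arrays per group). The brightest probeset (square) and the 3 at an unadjusted p under 0.05 (filled) lie between 0.80 and 1.87, and most of the others lie near 0.

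Across the wider machinery, 152 of 161 further chromatin genes were measured. At an unadjusted p under 0.05 in limma 3 were higher and 6 lower, 9 of 152 beside 4.80% of all genes, and 0 passed the adjusted threshold. Of the 9, the smallest p was that of Kdm7a, a demethylase of lysines 9 and 27 of histone H3. Kdm7a was at log2 levels of 5.99, 5.93 and 6.09 in the control arrays and 7.10, 6.81 and 6.42 in the HLX arrays. All HLX values lay above all controls, 1.71-fold on average, with an adjusted p from limma of 0.859. Its control values lay under the median of all probesets, 6.36, and only the brighter of its 2 probesets is given. Kdm5b, a lysine 4 demethylase, was at 8.07, 8.39 and 8.32 against 8.02, 8.01 and 7.94, lower without overlap by a log2 difference of -0.27 ± 0.11 (SE, n = 3 per group).

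Arrays differed in how far the members strayed. HLX replicate 3 held the value farthest from the 6-array mean in 18 of 50 members, or 36.0%, against 22.05% of all genes. The SD between replicates was larger with HLX than with the control vector in 31 of 50 members, or 62.0%, against 57.0% of all genes. By array, the members' median deviation from their own mean was 0.028, -0.057 and -0.026 in control replicates 1 to 3 and 0.070, 0.037 and -0.033 in HLX replicates 1 to 3. HLX replicate 3 thus lay among the controls, so the members' median did not separate the vectors.

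**Figure D5:**
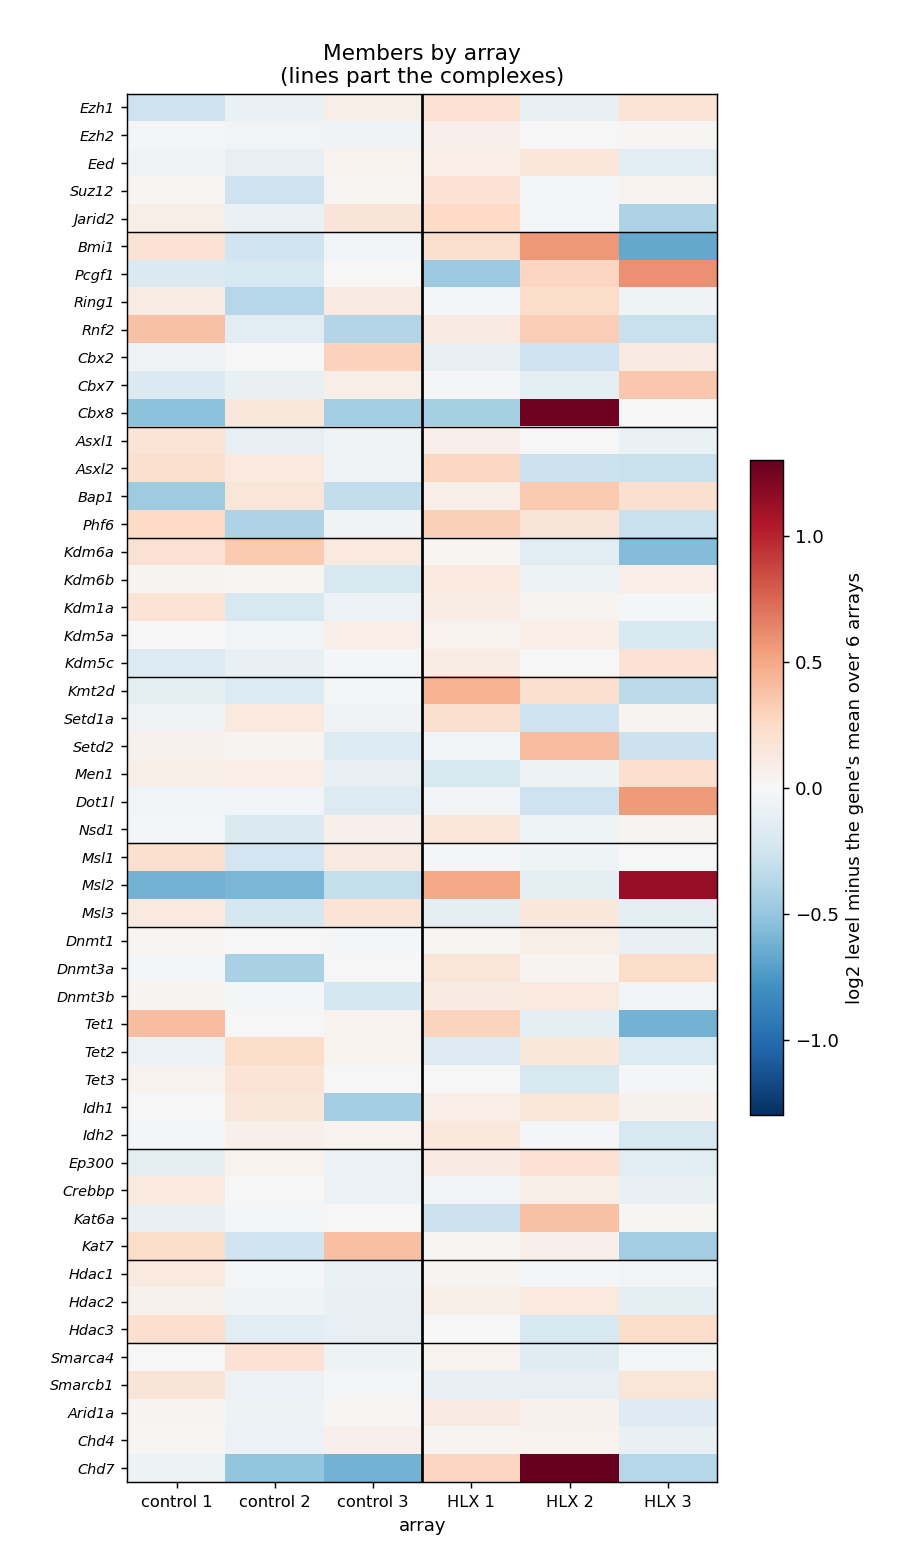
Log2 level of each of 50 members in each array, minus the gene's mean over 6 arrays (colour scale in log2 units), with lines between complexes and between vectors. Strong colours are mostly single squares, such as Cbx8 and Chd7 in HLX replicate 2, and Msl2 is low in all 3 control arrays and highest in HLX replicate 3.

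Lists of cell type genes were read beside these values, and their part in them was not tested. In bulk RNA, fewer cells of a type and less RNA per cell cannot be told apart. Mean log2 levels over a list are given. Myeloid progenitor granule genes ran from 7.32 to 7.55 with the control vector and from 6.48 to 6.94 with HLX (7 genes). Not all of them were lower, since 5 had differences below 0 and 2 above. The list's median deviation by array was -0.023, 0.11 and 0.35 with the control vector and -0.28, 0.0077 and -0.52 with HLX, which overlapped. Mature granulocyte and monocyte genes ran from 5.77 to 5.88 with the control vector and from 5.98 to 6.42 with HLX (11 genes). Of these, 8 had differences above 0 and 3 below, and 7 had a mean level under the median of all probesets. The list's median deviation by array was -0.020, -0.062 and -0.077 with the control vector and -0.087, -0.017 and 0.21 with HLX, which overlapped. Kit, which defines the sorted cells, was at 9.20 to 9.59 in all arrays, well above the median of all probesets, and Ly6a, the gene of Sca-1, is not analysed here. Stem and progenitor surface genes, Kit among them, ran from 8.51 to 8.63 and from 8.32 to 8.53 (7 genes). Of these, 6 had differences below 0 and 1, Kit, above. The list's median deviation by array was 0.13, 0.11 and 0.069 with the control vector and -0.011, -0.21 and -0.14 with HLX, without overlap. Flt3 and Cd27 had the smallest p of the list, with differences of -0.68 and -0.30 and adjusted p from limma of 0.901 and 0.99995. Cell cycle genes ran from 9.62 to 9.71 and from 9.71 to 9.84 (25 genes). B cell, T cell and NK cell, and stromal and endothelial lists stayed at 5.65 to 6.14, 5.30 to 5.49 and 6.22 to 6.39 over all arrays. Erythroid genes were at 6.97 to 7.06, megakaryocyte genes at 7.48 to 8.27 and mast cell and basophil genes at 5.22 to 6.12.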

How the data were processed

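Each array was deposited as 1 log2 level for every probeset. The submitters' processing notes name RMA and Affymetrix Power Tools as the authors' software. RMA normalizes between arrays, so a shift shared by all genes is largely lost, and it compresses differences of weak signals. The log2 scale was read from the values. RNA of few cells was amplified before labelling, per the labels' protocols. Software version, probe positions and their genome build are not used here. Of 35556 probesets, 21789 had 1 symbol, 1621 several and 12146 none listed. The brightest per gene left 19938 genes, with no filter on level. HLX was compared with control vector with limma 3.58.1 (lmFit, eBayes) in R 4.3.3, two-sided, Benjamini-Hochberg over all genes, threshold 0.05. SEs are limma's moderated ones. The fitting code was first tested on simulated arrays. Pairs of members were compared by exact permutation tests. Promoter windows come from RefSeq, GRCm38.p6, and no coordinates of probesets were used. By rule every member may be named, and values per array are given for members at an unadjusted p under 0.05 and the smallest p of each complex, and for further chromatin genes at an unadjusted p under 0.05. Array values of Ezh2, Kdm5c, Bmi1, Pcgf1, Dot1l and Tet1, and of the further gene Bcl7c, were added after they were seen. Members, complexes and lists were chosen with earlier results of these data known. Lists of stem and progenitor surface, cell cycle, interferon response, mature granulocyte and monocyte, myeloid progenitor granule, B cell, T cell and NK cell, erythroid, megakaryocyte, mast cell and basophil, and stromal and endothelial genes were read as levels. With 3 arrays per group, their number limits the precision.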

Additional observations from a re-analysis of the deposited data

How the results depend on the processing

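Over 15 alternative fits, 0 of 50 members passed the adjusted threshold in limma, and Msl2, Kdm6a and Bap1 kept their direction in each. Of 750 values for single members 62 turned sign, in 23 genes, none past the adjusted threshold in any fit. Over all genes the number called was 0 in limma, apart from 1 with the trended and robust prior. Members at an unadjusted p under 0.05 numbered 3 in the main fit, and 5 with the replicate block (6.04% of all genes). With the filter on dim genes, quantile normalization, cyclic loess, the trended and robust prior, or both arrays numbered 1 left out, they numbered 2 (4.63% to 5.48%). With median centring, array weights or the mean of a gene's probesets they numbered 3 (4.78% to 6.03%). They numbered 1 to 6 when 1 array was left out (4.04% to 6.36%), with 1 without control replicate 1 and 6 without HLX replicate 1. Members whose groups did not overlap numbered 5, and 3 after quantile normalization or cyclic loess (10.04% and 10.44% of all genes). With 1 array left out they were 6 to 15 (16.7% to 24.1%), and without both arrays numbered 1, 14 (31.16%), since fewer arrays overlap less. The members' median difference was 0.059 and ranged from -0.0046 to 0.068 with 1 array left out, lowest without control replicate 2. With median centring it was 0.085, while that of all genes was 0.018. Pairs with separate groups numbered 4, and 4 to 7 with 1 array left out. The cause of these moves was not tested, apart from the smaller number of arrays. Trials were a filter on dim genes, quantile normalization, cyclic loess, median centring, a trended and robust prior, array weights, the mean of a gene's probesets, the replicate block, and arrays left out. Numbers shared by the labels were not used to pair arrays, since deviations of equally numbered arrays correlated at 0.20, 0.0085 and 0.14 and control replicate 2 correlated best with HLX replicate 3 (0.11). Against this choice, control replicates 1 and 3 correlated best with the HLX array of the same number. Interferon response genes were also high in both arrays numbered 1. What equally numbered arrays share was not tested. The replicate block changed no call at the adjusted threshold. Depth here is signal over background, for which no detection calls were used. All 50 members had a mean level above the median of all probesets, 6.36, so the filter on dim genes removed none of them.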

Other observations

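Beside Chd7, 6 members have more than 1 probeset, and they agreed to different degrees. Tet1 has 3, and all had differences below 0, at -0.30 for the brightest, -0.28 for the next and -0.82 for the dimmest, with HLX replicate 3 the lowest array in each. Setd2 has 2, at 0.054 and 0.16, with HLX replicate 2 the highest array in both. The second probeset of Kmt2d was at 0.074 against 0.21 for the first, and there HLX replicate 3 was not low, at 8.22 with a mean level of 8.20. For Hdac1 the difference was -0.0092 in one probeset and 0.033 in the other, and for Tet3 it was -0.14 and -0.026. The second probeset of Eed was at 0.14 with a mean level of 5.15, below the median of all probesets. None of these probesets was at an unadjusted p under 0.05 in limma when each was tested on its own, and the 3 that were among the 7 genes belong to Chd7.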
